A study of Rattus norvegicus with 6 samples.

Results

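Chat, Slc18a3, Slc5a7, Chrna3, Chrnb4, Phox2a, Tlx2, Ret and Cartpt, 9 genes grouped as genes of cholinergic neurons of the ganglia beside the heart, were followed in bulk RNA-seq of pulmonary veins (PVs). Not all are particular to these neurons, as Phox2a also serves noradrenergic and Tlx2 enteric neurons. They were found by gene symbol among the 17833 genes of the deposited table, and all 9 were listed. The genes were chosen because they were low after banding, so their levels are given as a description and were not tested. The samples were PVs serving the right upper lung lobe of wild type Sprague-Dawley (SD) rats, collected at postnatal day 21. In the bilateral pulmonary vein banding (BPVB) group, 3 rats had the PVs constricted as newborns, typically at postnatal day 1. In the sham group, 3 rats had the same operation without the constriction. Every rat, sham included, had been cooled on ice and had its chest opened, and no rat without surgery was part of the comparison. The BPVB rats model a narrowing fixed by a suture over a padding needle, and whole PV pieces were sequenced rather than dissected ganglia or sorted neurons.

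Acetylcholine is the transmitter of the parasympathetic nerves that slow the heart. Their last neurons sit in small ganglia in the fat and the atrial wall where the PVs enter the heart, and receive nicotinic input from the vagus nerve. Such a neuron makes acetylcholine with choline acetyltransferase (Chat), loads it into vesicles with the vesicular acetylcholine transporter (Slc18a3) and takes choline back up with the high-affinity choline transporter (Slc5a7). It senses vagal input through the nicotinic receptor subunits α3 (Chrna3) and β4 (Chrnb4). Phox2a and Tlx2 encode homeodomain transcription factors of autonomic neurons, Ret encodes the receptor tyrosine kinase that serves the GDNF family of growth factors, and Cartpt encodes the precursor of the CART peptides. In bulk tissue, fewer cells of a type and less RNA per cell cannot be told apart.

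The values are FPKM, that is, fragments counted on a gene divided by its length and by the library total. The whole fragments behind each FPKM were recovered, and library totals were between 23439506 and 29725808 fragments, on average 1.161 times as high in the BPVB group. A count of 0 was read as a limit of 3 fragments per library, which covers counting error only. Folds given as "at least" set the sham mean against this limit and leave out the counting error of the sham libraries. Sample labels call the 6 libraries separate samples and the study drew 3 rats per group, so p-values were taken to measure the spread between rats. For some genes the spread between sham libraries was close to counting error. The variance of the sham fragments over their mean was 0.219 for Gata2 and 2.3 for Vwf, against 552 for Myh6. What lies behind this spread was not tested.

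Chat and Slc18a3 form the cholinergic gene locus. In the RefSeq annotation (GRCr8), Slc18a3 lies whole inside the span of Chat, on the same strand, so that fragments of one could have been given to the other where their exons meet. The RefSeq promoters of all 9 genes were found, each from 250 bases before to 50 after the start of the gene. The promoters of Chat (chr16:7723367-7723666, minus strand), Slc18a3 (chr16:7722765-7723064, minus strand), Slc5a7 (chr9:7953460-7953759, minus strand) and Cartpt (chr2:32991186-32991485, minus strand) in GRCr8 are printed, because the first 3 serve the making and recycling of acetylcholine and the fourth holds a whole cAMP response element. Capitals mark matches, on either strand, to the core of the cAMP response element (TGACGT), a GC box (GGGCGG) or an E-box (CAGCTG).
Chat: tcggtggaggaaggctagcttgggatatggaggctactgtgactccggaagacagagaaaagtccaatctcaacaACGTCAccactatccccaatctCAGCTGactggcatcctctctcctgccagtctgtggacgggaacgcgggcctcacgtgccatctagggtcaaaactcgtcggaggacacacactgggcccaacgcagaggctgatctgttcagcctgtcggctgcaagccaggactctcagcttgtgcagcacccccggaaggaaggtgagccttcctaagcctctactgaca
Slc18a3: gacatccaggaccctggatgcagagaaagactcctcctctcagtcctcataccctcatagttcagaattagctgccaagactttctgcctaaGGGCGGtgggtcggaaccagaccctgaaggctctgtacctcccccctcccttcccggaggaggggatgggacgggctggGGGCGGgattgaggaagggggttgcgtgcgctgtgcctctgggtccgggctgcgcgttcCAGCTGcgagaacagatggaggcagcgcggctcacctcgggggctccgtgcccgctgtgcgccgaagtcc
Slc5a7: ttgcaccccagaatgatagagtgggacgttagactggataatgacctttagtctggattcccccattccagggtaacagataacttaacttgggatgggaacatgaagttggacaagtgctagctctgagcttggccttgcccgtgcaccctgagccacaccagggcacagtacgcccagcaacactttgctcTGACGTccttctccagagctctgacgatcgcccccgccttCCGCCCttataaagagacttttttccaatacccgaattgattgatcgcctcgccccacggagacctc
Cartpt: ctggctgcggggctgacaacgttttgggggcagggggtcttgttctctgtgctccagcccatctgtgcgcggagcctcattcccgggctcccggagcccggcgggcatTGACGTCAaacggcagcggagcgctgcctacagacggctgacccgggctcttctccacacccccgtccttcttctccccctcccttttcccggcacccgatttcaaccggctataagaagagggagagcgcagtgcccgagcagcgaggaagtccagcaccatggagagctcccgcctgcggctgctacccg
The core was found in 3 of the 9 promoters (Chat, Slc5a7 and Cartpt) and in 7.94% of the 33469 RefSeq promoters. In Cartpt the matches on both strands overlap as TGACGTCA. The GC box was in 6 of the 9 (Slc18a3, Slc5a7, Chrna3, Chrnb4, Phox2a and Tlx2) and in 33.1% of all promoters, and the E-box was in Chat and Slc18a3 and in 15.1% of all. A palindromic paired-type homeodomain site was in none of the 9 promoters and in 0.406% of all, and the left part of the RE1 site (TTCAGCACC) was in none of the 9 and in 0.356% of all. All 9 promoters had a GC content above the 51.7% that is the median of all promoters, from 53.0% in Slc5a7 to 74.0% in Tlx2 and Ret. No motif searched was shared by the 9 promoters.

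In the BPVB group, 7 of the 9 genes had 0 fragments in all 3 libraries, and the other two, Slc5a7 and Ret, were above 0 in every library. Of the 15476 genes above 0 in all 3 sham libraries, 0.271% had 0 fragments in all 3 BPVB libraries. Among those with at least 20 fragments over the sham libraries, the lowest sum of the 7, the share was 0.121%. The reverse, 0 in all sham and above 0 in all BPVB libraries, held for 0.378% of 15595 genes, and for 0.139% with at least 20 fragments over the BPVB libraries. All 9 genes were lower in the BPVB group with no overlap between the groups, as were 20.5% of the 15150 genes whose FPKM averaged 0.1 or more. Because the genes were chosen on this contrast, nothing is read from these counts. Of the 9, 7 passed that filter, all but Ret of them only through the sham libraries, and Chat and Chrnb4 lay below it.

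**Figure D1:**
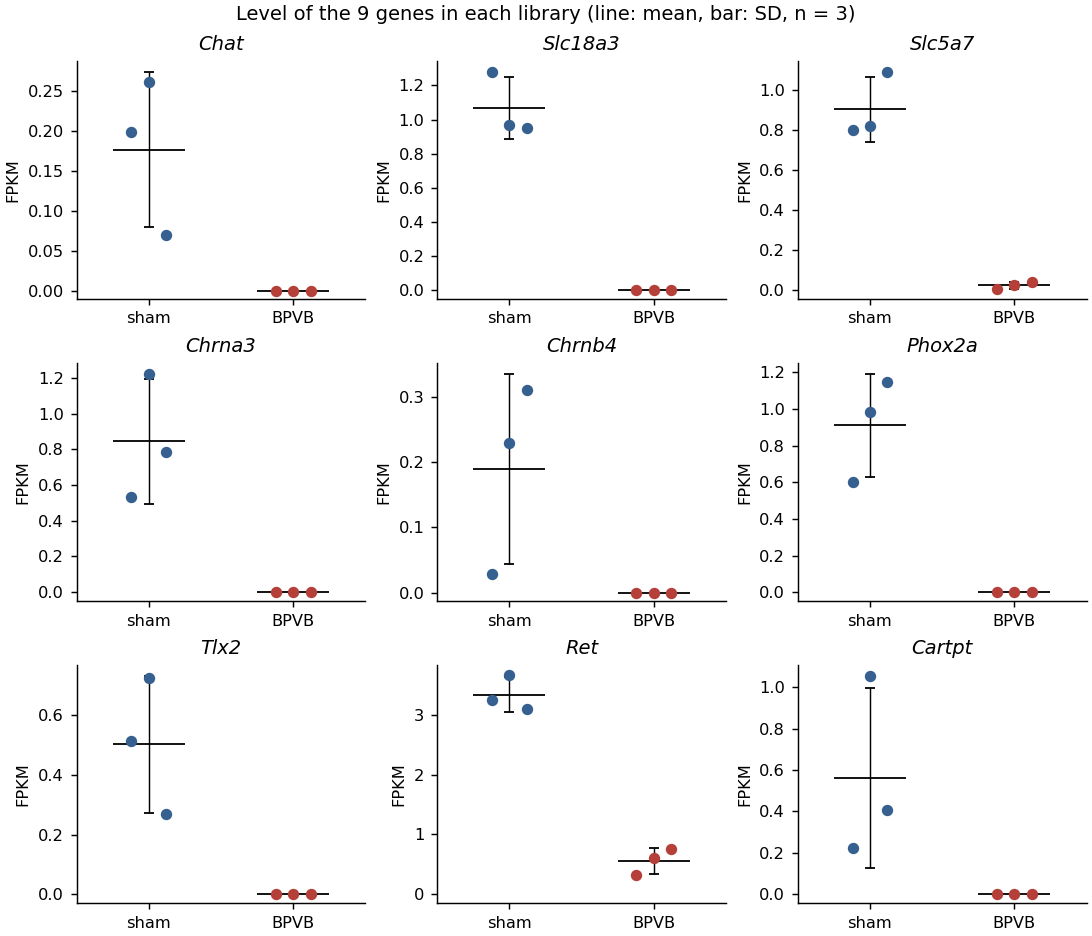
FPKM (linear axis, from 0) of the 9 genes in each of the 3 sham (blue) and 3 BPVB (red) libraries, with the mean as a line and the SD as a bar. In 7 panels every BPVB point lies at 0, while Slc5a7 and Ret keep BPVB values above 0 that stay below all sham values.

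The enzyme that makes acetylcholine, its vesicular transporter and the choline transporter were at or near 0 fragments after banding. Slc18a3 (NCBI Gene 60422) had 87, 65 and 65 fragments in the sham libraries, or 1.28, 0.969 and 0.953 FPKM, and 0 in each BPVB library. Its sham mean was 1.07 ± 0.18 FPKM (SD, n = 3), and against the limit of 3 fragments the BPVB level was at least 27.9-fold lower. This is the highest bound among the 7 genes at 0, set by the number of sham fragments rather than by the BPVB libraries, which are at 0 for all 7.
Chat (NCBI Gene 290567) had 17, 22 and 6 fragments in the sham libraries, or 0.199, 0.261 and 0.0701 FPKM, and 0 in each BPVB library. After banding it was at least 5.8-fold lower. Per length, the sham mean of Slc18a3 was 6.03 times that of Chat, and their sham ranges did not overlap, although both genes come from the same locus.
Slc5a7 (NCBI Gene 85426) had 93, 94 and 127 fragments in the sham libraries, or 0.799, 0.819 and 1.09 FPKM. In the BPVB libraries it had 1, 3 and 6 fragments, or 0.00765, 0.0235 and 0.0412 FPKM. Each BPVB library was thus between 0.848% and 4.57% of the sham mean. The ratio of sham to BPVB was 36.5, with a 95% interval from 19.6 to 76.8 (Clopper-Pearson, for counting error only), and 58.3 without BPVB replicate 3. On the log2(FPKM + 0.5) scale the differences, BPVB minus sham, were -0.43 for Chat, -1.64 for Slc18a3 and -1.41 for Slc5a7, with SDs between replicates of 0.15, 0.12 and 0.12.

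The nicotinic subunits were at 0 after banding. Chrna3 (NCBI Gene 25101), whose product binds acetylcholine at the synapses of autonomic ganglia, had 19, 43 and 28 sham fragments, or 0.533, 1.22 and 0.784 FPKM. With 0 fragments in each BPVB library it was at least 11.6-fold lower. Chrnb4 (NCBI Gene 25103), which pairs with it in the ganglionic receptor, had 1, 8 and 11 sham fragments, or 0.0283, 0.229 and 0.310 FPKM. It was at least 2.57-fold lower, and at least 1.75-fold lower without sham replicate 3. Sham replicate 1, with 1 fragment, lay under the limit of 3 fragments and close to the BPVB values of 0. A long noncoding RNA on the opposite strand overlaps part of Chrna3 and all of Chrnb4 in the RefSeq annotation, and whether the counting used strand is not given in the sources used here. Per length, Chrna3 was 4.47 times as high as Chrnb4 in the sham group.

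Both transcription factors were also at 0 in the BPVB group. Phox2a (NCBI Gene 116648), a homeodomain factor that specifies autonomic and noradrenergic neurons, had 23, 37 and 44 sham fragments, or 0.602, 0.982 and 1.15 FPKM. It was at least 13.4-fold lower after banding. It overlaps Inppl1 on the opposite strand by 76 bases in the annotation, and Inppl1 had between 2208 and 3087 fragments in each of the 6 libraries while Phox2a had none in the BPVB libraries. Tlx2 (NCBI Gene 680117), a homeodomain factor of neural crest-derived autonomic and enteric neurons, had 23, 32 and 12 sham fragments, or 0.514, 0.725 and 0.268 FPKM. It was at least 8.64-fold lower.
The neuropeptide gene Cartpt (NCBI Gene 29131) had 6, 28 and 11 sham fragments, or 0.223, 1.05 and 0.408 FPKM, and 0 in the BPVB libraries. Its highest sham library, replicate 2, was at 4.73 times its lowest, replicate 1, relative to the library totals, a span exceeded among the 9 genes only by Chrnb4, with 1 and 11 fragments at its ends. After banding it was at least 5.81-fold lower, and at least 3.26-fold lower without sham replicate 2.

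Ret (NCBI Gene 24716) had the most fragments of the 9 genes in every library of both groups. It had 480, 533 and 457 sham fragments, or 3.25, 3.67 and 3.09 FPKM, and 53, 97 and 139 BPVB fragments, or 0.320, 0.600 and 0.754 FPKM. The lowest sham library was above the highest BPVB library, and the BPVB libraries were between 9.59% and 22.6% of the sham mean. The ratio of sham to BPVB was 5.91, with a 95% interval from 5.2 to 6.72 for counting error only. The BPVB libraries differed among themselves by 2.35 times in FPKM, against 1.19 times among the sham libraries. Ret made up 62.0% of the 2372 fragments of the 9 genes in the sham libraries and 96.7% of their 299 fragments in the BPVB libraries.

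**Figure D2:**
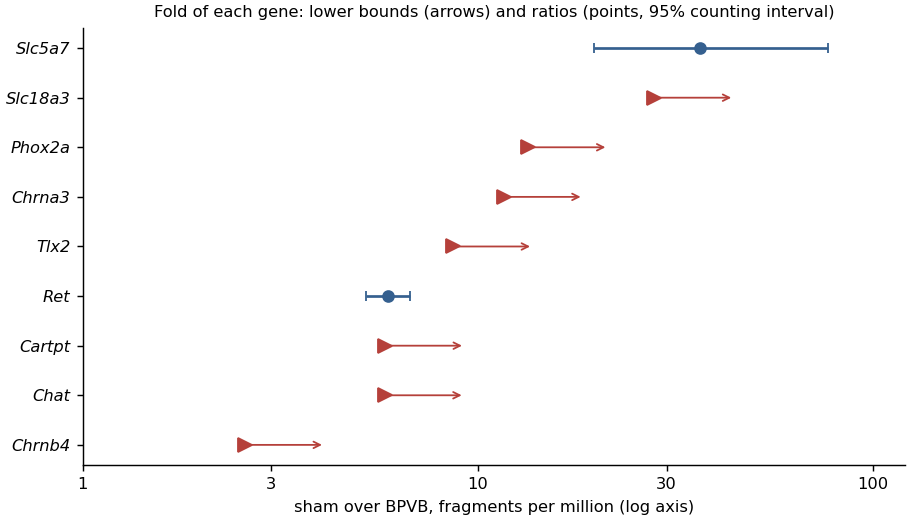
Sham over BPVB in fragments relative to the library totals (log axis) for the 9 genes. Arrows start at the lower bound of the 7 genes at 0 in every BPVB library, from 2.57 for Chrnb4 to 27.9 for Slc18a3, and points with bars give the ratio and 95% counting interval of Slc5a7 (36.5) and Ret (5.91).

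By mean FPKM in the sham group the order was Ret (3.34), Slc18a3 (1.07), Phox2a (0.911), Slc5a7 (0.902), Chrna3 (0.847), Cartpt (0.562), Tlx2 (0.502), Chrnb4 (0.189) and Chat (0.177). Ret stood 3.13 times above Slc18a3 with no overlap of their sham ranges. The ranges of every other pair of neighbours in this order overlapped, so that their order was not separated by the spread between rats. The 9 genes together had 749, 862 and 761 fragments in the sham libraries and 54, 100 and 145 in the BPVB libraries. Their summed FPKM in the BPVB libraries was 0.039, 0.073 and 0.094 of the sham mean. The median difference of the 9 on log2(FPKM + 0.5) was -1.40 (range -1.88 for Ret to -0.43 for Chat), beside 0.02 over all genes tested. The pseudocount of 0.5 compresses these differences, most for the genes with the lowest levels, and the bounds and ratios from the fragments do not depend on it.

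Outside the 9 genes, 35 genes also had 0 fragments in all BPVB libraries and at least 1 in each sham library. The 10 with the most sham fragments had at most 47 over the 3 sham libraries, fewer than Slc18a3, Phox2a, Chrna3 and Tlx2. Stxbp5l, which encodes a syntaxin-binding protein, had 18, 13 and 16 sham fragments and was at least 6.04-fold lower after banding. Celf6, an RNA-binding protein gene of the CELF family, followed with 6, 14 and 18, and the sugar transporter gene Slc45a1 with 10, 19 and 5. Gabra5, a subunit of the GABA-A receptor, had 8, 8 and 9 sham fragments and was at least 3.21-fold lower. Isl1, a LIM homeodomain gene of autonomic and sensory neurons, had 5, 13 and 5 and was at least 2.97-fold lower, and Rims3, a gene of the presynaptic release site, had the same 3 counts. Cnnm1, Oosp2, LOC100359656 and LOC102555039 completed the 10. Over the 6 libraries, Pearson's r with the mean of the 9 genes on log2(FPKM + 0.5) was between 0.633 (Oosp2) and 0.983 (Gabra5), a description over libraries in which all these genes share the same zeros.

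Differences in related genes were tested with limma on log2(FPKM + 0.5), with a gene said to be higher or lower when its Benjamini-Hochberg adjusted p was under 0.05. Of the 15150 genes tested, 17.2% were higher and 14.3% lower in the BPVB group, and with an absolute log2 fold change above 1 as well, 2.24% were higher and 1.03% lower (DEGs).
In a list of 23 pan-neuronal genes, 21 were tested, 16 were lower and 0 were higher, with a median log2 fold change of -0.88 beside 0.02 over all genes. Of the 16, 10 were DEGs, and 3 (Elavl2, Elavl4 and Chgb) passed the filter on low values only through the sham libraries, with a BPVB mean under 0.1 FPKM. The calls of Elavl2 and Elavl4 were lost with any BPVB library, sham replicate 2 or sham replicate 3 left out (adjusted p up to 0.095 and 0.13, limma). That of Elavl4 was also lost with the replicate number as a block (adjusted p = 0.072, limma), and Chgb passed in every alternative that tested it. Nefl, the light neurofilament, fell from 6.74 ± 0.63 to 0.358 ± 0.15 FPKM (SD, n = 3 each), with a log2 fold change of -3.09 (standard error 0.15, adjusted p = 1.2e-06, limma). Tubb3, the neuronal β-tubulin, fell by 2.17, Stmn3, a tubulin-binding stathmin, by 1.88, and Snap25, a SNARE protein of vesicle release, by 1.64 on the log2 scale. Prph and Uchl1 are common to peripheral neurons of many kinds. Prph, which encodes peripherin, fell by 0.72, from 6.85 ± 1.0 to 3.94 ± 0.43 FPKM (SD, n = 3 each), and Uchl1, a neuronal ubiquitin hydrolase, fell by 0.80. Stmn2, the stathmin of growing axons, had 558, 548 and 475 sham fragments and 583, 466 and 582 BPVB fragments, and did not pass the test (log2 fold change -0.17, adjusted p = 0.21, limma). The summed level of the list in the BPVB group was 0.427 of the sham group, with 74.8% of the BPVB sum from Stmn2, Uchl1, Prph and Gap43. These 4 genes, the highest of the list by their mean over all 6 libraries, summed to 0.671 of the sham group, and the other 19 to 7.42 against 36.1 FPKM, or 0.205. The split was made after the values were seen and is a description.

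Of 12 autonomic neuron transcription factor genes, 9 had values and 5 were tested, of which 1 was higher and 1 lower. Hand2, which heart muscle also expresses, had a sham mean of 35.0 ± 3.6 and a BPVB mean of 39.0 ± 2.9 FPKM (SD, n = 3 each) and did not pass the test (adjusted p = 0.16, limma). It passed, as higher, without sham replicate 1 (adjusted p = 0.047, limma, range 0.047 to 0.43 over the alternatives). Sox11 was higher, with 24, 42 and 73 BPVB fragments against 5, 2 and 9 (log2 fold change 1.07, adjusted p = 0.0059, limma), and Gata2, a factor of endothelium and blood as well, was lower by 0.36. Isl1 was below the filter on low values.

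Of the 14 tested in a list of 19 noradrenergic and neuropeptide genes, 3 were higher, 3 were lower and the median log2 fold change was -0.11, beside 17.2% higher and 14.3% lower over all genes tested, so that nothing is read from the count. Th, the rate-limiting enzyme of catecholamine synthesis, had 55, 48 and 21 sham fragments and 4, 1 and 8 BPVB fragments (log2 fold change -1.27, adjusted p = 0.0028, limma). Th passed the filter on low values only through the sham libraries, as did Sst, and without that filter their adjusted p was 0.0063 and 0.012 (limma). Dbh, which makes noradrenaline from dopamine, had 47, 42 and 29 sham fragments and 25, 21 and 45 BPVB fragments, and the groups overlapped (adjusted p = 0.18, limma). Slc6a2, the noradrenaline transporter, was higher, with 3.91 ± 0.27 against 1.04 ± 0.20 FPKM (SD, n = 3 each; log2 fold change 1.52, adjusted p = 3.6e-05, limma). The neuropeptide galanin gene Gal was higher (log2 fold change 1.35) and the somatostatin gene Sst was lower (-0.86), with 5, 6 and 12 sham fragments and 0, 2 and 0 BPVB fragments. Vip (adjusted p = 0.60) and Nos1 (adjusted p = 0.97, limma), which some parasympathetic neurons make, did not pass the test.

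Of 31 genes for other receptors, their effectors and acetylcholine breakdown, 27 had values and 20 were tested, with 4 higher, 3 lower and a median log2 fold change of 0.04. These counts are near the 17.2% higher and 14.3% lower over all genes and are no result about the list. Chrm2, the muscarinic receptor of heart muscle, had 56.4 ± 1.5 FPKM in the sham and 59.4 ± 1.8 in the BPVB group (SD, n = 3 each; log2 fold change 0.07, adjusted p = 0.18, limma), although the groups did not overlap. Kcnj3, a channel subunit that opens on muscarinic stimulation, had a log2 fold change of 0.04 (adjusted p = 0.64, limma). Of the enzymes that split acetylcholine, Ache rose by 0.49 on the log2 scale (adjusted p = 0.0090, limma) and Bche by 0.78, from 7.61 ± 0.81 to 13.4 ± 0.65 FPKM (SD, n = 3 each). Colq, the collagen tail that anchors acetylcholinesterase, rose by 0.73, and Rgs4, a brake on G-protein signalling, fell by 0.56.
Chrna5, a subunit gene of the same cluster as Chrna3 and Chrnb4, had 24, 20 and 39 sham fragments and 10, 0 and 0 BPVB fragments (log2 fold change -0.59, adjusted p = 0.024, limma). It passed the filter on low values only through the sham libraries (adjusted p = 0.012 without the filter, limma). Chrna7 was lower by 0.53 (adjusted p = 0.025, limma), with 17, 21 and 20 sham fragments and 5, 11 and 12 BPVB fragments. Both calls depended on single libraries. The adjusted p of Chrna5 (limma) was 0.072 or 0.069 with BPVB replicate 2 or 3 left out, and 0.052 or 0.088 with sham replicate 1 or 3 left out (range 0.0016 to 0.088 over its alternatives). That of Chrna7 was 0.081 with BPVB replicate 1 left out, 0.079 or 0.071 with sham replicate 2 or 3 left out, and 0.16 with limma-voom (range 0.014 to 0.16). Chrnb2 had 3, 13 and 13 sham fragments and 0, 0 and 6 BPVB fragments and did not pass the test (adjusted p = 0.15, limma).

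Ret binds its ligands together with a GFRα co-receptor. In a list of 10 such ligand and co-receptor genes, 8 were tested, 1 was higher and 1 lower, and the median log2 fold change was -0.05. Nrtn, which encodes neurturin, a growth factor of parasympathetic neurons, had 94, 88 and 104 sham fragments and 143, 82 and 123 BPVB fragments (adjusted p = 0.90, limma). Its co-receptor gene Gfra2 had 7.21 ± 1.1 and 6.95 ± 0.31 FPKM (SD, n = 3 each) in the sham and BPVB groups (adjusted p = 0.82, limma). Gfra1, the co-receptor for GDNF, was higher (log2 fold change 0.82, adjusted p = 3.7e-04, limma). Gfra3 was lower by 0.50 (adjusted p = 0.027, limma), a call lost without BPVB replicate 1 (0.073), BPVB replicate 2 (0.081), sham replicate 1 (0.090) or sham replicate 3 (0.085) and with no filter on low values (0.052), with a range of 0.0046 to 0.090 over its alternatives.

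Of 17 Schwann cell and glial genes, all tested, 11 were lower and 1 was higher, with a median log2 fold change of -0.55. Foxd3, a transcription factor of the neural crest, had 80, 162 and 124 sham fragments and 51, 59 and 61 BPVB fragments (log2 fold change -0.85, adjusted p = 0.0094, limma). Ncmap, which encodes a protein of noncompact myelin, fell by 0.82, and Sox10, the transcription factor of Schwann cells, fell by 0.70, a call lost without sham replicate 1 (adjusted p = 0.053, limma, range 1.5e-04 to 0.053). S100b, which other cells also express, was higher (log2 fold change 0.78, adjusted p = 0.0053, limma).

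**Figure D3:**
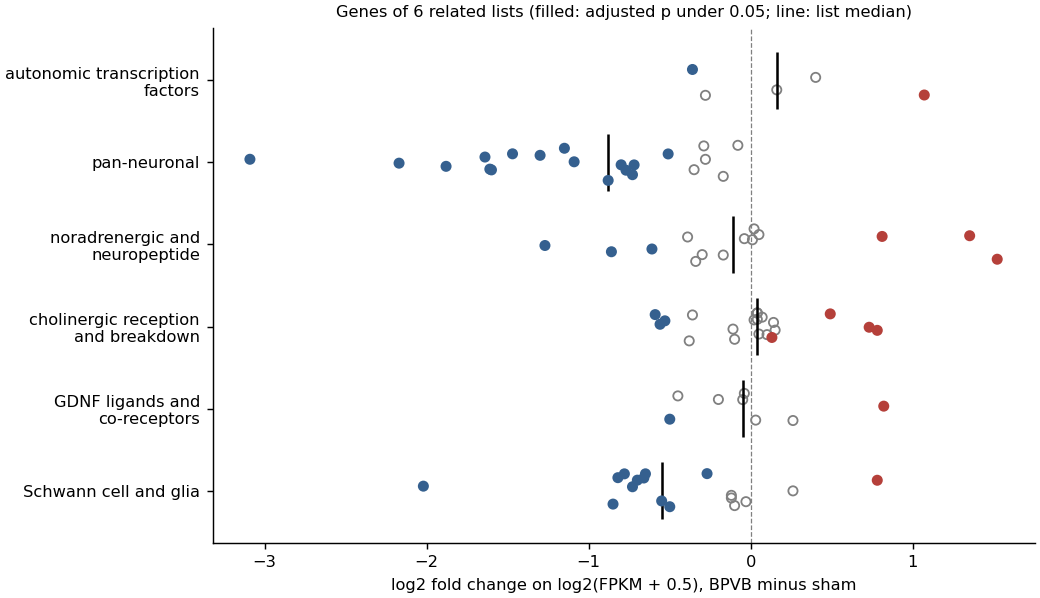
Log2 fold change on log2(FPKM + 0.5), BPVB minus sham, of the tested genes of 6 related lists. Filled points passed an adjusted p of 0.05 (blue lower, red higher), open points did not, and black lines are list medians, which are lowest for the pan-neuronal (-0.88) and the Schwann cell and glial genes (-0.55).

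Summed markers of muscle, vessel, fat and tuft cells were between 0.744 and 1.02 of the sham group, and those of lung epithelium were at 4.94. The summed FPKM of 12 vascular wall genes ranged from 6140 to 6220 in the BPVB and from 6620 to 6670 in the sham libraries, with 2 genes higher and 8 lower (Des higher by 0.41, Cdh5 lower by 0.34). That of 11 atrial myocyte genes ranged from 16500 to 16900 against 22300 to 22700, with 4 higher and 7 lower, among them Myl7 (log2 fold change -0.59; adjusted p = 0.31 after quantile normalization, limma, the only alternative in which its call was lost) and Tnni3 (-0.69), and Tbx5 higher by 0.52. No gene of these 2 lists was a DEG.
The adipocyte sum, of which Fabp4 is a large part, ranged from 1470 to 1520 against 1470 to 1480, with 6 of 11 genes higher, such as Retn (log2 fold change 2.47) and Plin1 (1.83), and 2 lower. Of 14 tested lung epithelial genes, 13 were higher and 1 lower, with a sum of 709 to 759 against 147 to 152 FPKM, and Sftpc had a log2 fold change of 3.40. Tuft cells of the airway also express Chat. Of 9 tuft cell genes 5 were tested, with 1 higher (Plcb2) and 1 lower (Dclk1, adjusted p = 0.028, limma). The Dclk1 call was lost without BPVB replicate 3 (0.080), sham replicate 1 (0.064), sham replicate 2 (0.057) or sham replicate 3 (0.084). It was also lost with the replicate number as a block (adjusted p = 0.052, limma), with a range of 6.6e-06 to 0.084 over its alternatives. Dclk1 made up 64.4% of the tuft cell sum in the BPVB and 79.4% in the sham group, and the other 8 genes summed to 1.76 against 1.11 FPKM, 1.59 times the sham level. The defining gene Pou2f3 had at most 1 fragment in any library, and Il25 and Tas1r3 were at 0 in all but one. The other genes of the list were found in every library of both groups, among them Trpm5 with 17, 5 and 7 BPVB and 7, 7 and 19 sham fragments, Gnat3 with 15, 3 and 19 against 9, 31 and 2, and Avil with 32, 87 and 52 against 24, 17 and 25. The part of tissue make-up in the levels of the 9 genes was not tested.

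**Figure D4:**
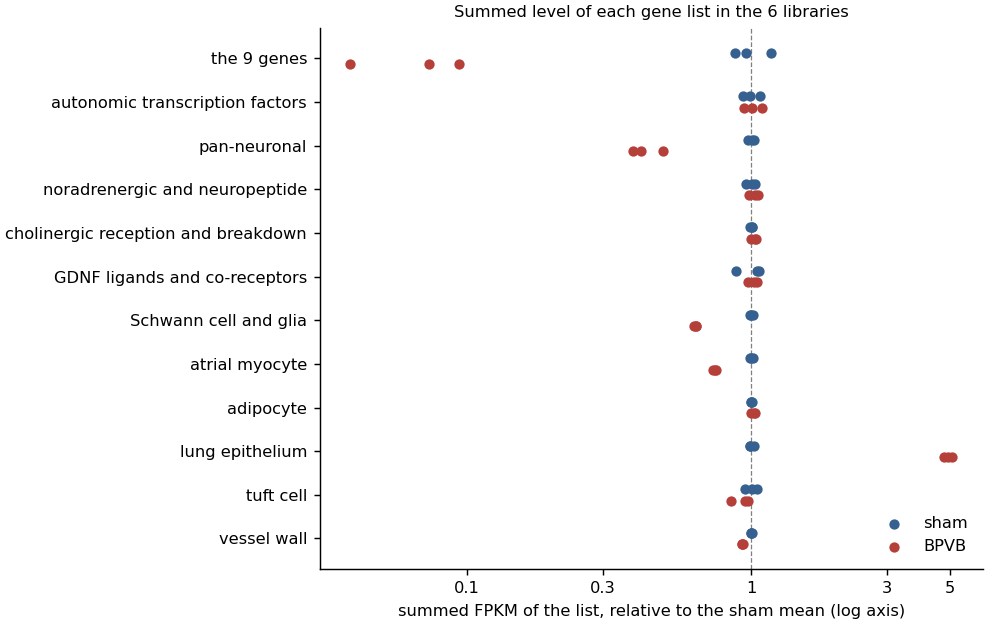
Summed FPKM of the 9 genes and of each list in the 6 libraries, relative to the sham mean (log axis; blue sham, red BPVB). The 9 genes lie between 0.039 and 0.094 in the BPVB libraries, the pan-neuronal sum averages 0.427, the vascular wall sum 0.931 and the lung epithelial sum 4.94.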

How the data were processed

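Bulk RNA-seq was available for the PVs of 3 BPVB and 3 sham-operated rats. Library columns were matched to the sample labels by the initial and number of the titles. The authors deposited 1 FPKM value per gene and rat. The study's methods name fastp, HISAT and HTSeq-count, and the submitters' processing notes name HISAT2 2.0.5, StringTie 1.3.3b, featureCounts 1.5.0-p3 and DESeq2 1.20.0. The study names the VAHTS Universal V6 library kit and the labels a NEBNext Ultra kit. The genome build, the annotation and the strand setting are not given in the sources used here.

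Library totals were recovered exactly from the ratios of FPKM between libraries, and fragments as the smallest whole numbers that give each gene's FPKM, found for 17833 of 17833 genes. They are exact only up to a common factor per gene. On a simulated table, 3933 of 3969 genes came out with all fragments right.

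Groups were compared with limma 3.58.1 in R 4.3.3 (eBayes with trend, two-sided) after adding 0.5 to each FPKM and taking log2. Genes averaging under 0.1 FPKM were left out and p-values were adjusted by Benjamini-Hochberg. The term DEG was kept for adjusted p below 0.05 combined with a log2 fold change beyond 1 in either direction. Python 3.11.15 (numpy 2.4.6, scipy 1.17.1, pandas 2.3.3, matplotlib 3.10.9) did the rest. The 9 genes and all lists were chosen with earlier results of these data known. Named list genes are up to 4 with the largest change among those past the test, plus defining genes of each list. Stmn2, Gap43, Elavl2, Elavl4, Chgb, Pou2f3, Il25, Tas1r3, Trpm5, Gnat3, Avil and Fabp4 were named after their values were seen. The genes most like the 9 are the 10 with most sham fragments among those at 0 in all BPVB and above 0 in all sham libraries. Hand1, Hmx2, Hmx3, Calca, Calcb, Chrna6, Chrna9, Chrnd, Chrng, Gfral and Bmp10 were not analysed here, and some genes of the lists are counted but not reported by name. Alternatives were 2 other pseudocounts, 2 other filters, 2 other scalings, the replicate number as a block, limma-voom on the recovered fragments and leaving out each library in turn. Promoter sequences are from RefSeq (GRCr8), which was used otherwise only for which genes overlap.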

Additional observations from a re-analysis of the deposited data

How the results depend on the processing

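The level of the 9 genes stayed lower in the BPVB group under every alternative that gave a value. This is no test, because the genes were chosen on this contrast. For the 7 genes at 0 in every BPVB library, no alternative could have changed the direction. The filter on a mean FPKM of at least 1 left only Ret of the 9. Their median log2 difference of -1.40 was -0.87 with a pseudocount of 1, -2.52 with a pseudocount of 0.1 and -5.22 with limma-voom on the recovered fragments. It ranged from -1.47 to -1.20 with each library left out. These values are no bounds. At 217 or fewer sham fragments in all for each of the 7 genes at 0, the depth cannot show how much further they fell.

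The DEGs numbered 340 higher and 156 lower. With a pseudocount of 1, 98 were lower, with a pseudocount of 0.1, 611 were higher and 290 lower, and with limma-voom 715 were higher and 407 lower. They ranged from 342 to 357 and from 153 to 175 with each library left out. With a mean FPKM of at least 1, fewer genes were tested, and the lower calls were 9 pan-neuronal, 0 noradrenergic and neuropeptide and 1 cholinergic reception gene, with 0 autonomic transcription factors and 0 tuft cell genes higher. Without a filter, 2 autonomic transcription factors and 0 GDNF family genes were lower. With limma-voom, 2 autonomic transcription factors were lower and 2 GDNF family genes higher, and after quantile normalization 2 GDNF family genes were lower. The cause of these shifts was not tested. With each library left out, autonomic transcription factors higher ranged from 1 to 2 (2 without sham replicate 1), cholinergic reception genes lower from 1 to 2 (1 without sham replicate 3) and GDNF family genes lower from 0 to 1 (0 without BPVB replicate 1, BPVB replicate 2 or sham replicate 1). Tuft cell genes higher were 2 without BPVB replicate 1. Of the 90 list genes called, 75 kept their call in all alternatives that tested them.

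Replicate numbers are shared between the groups. Deviations of same-numbered libraries from their group means correlated at 0.025, 0.014 and 0.015 over tested genes. Each library correlated best with its own number, but too weakly to pair the samples. With the replicate block, 340 DEGs were higher and 157 lower, and of the list counts only the tuft cell genes lower moved by over 1.5 times, from 1 to 0. The tuft cell gene whose call was lost there was Dclk1.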
